A study of Mus musculus with 6 samples.

Results

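Integrin and laminin genes were examined in the pancreas of Ela-myc mice with and without PARP2. They were genes in the deposited count table whose symbols name an integrin alpha subunit, an integrin beta subunit from Itgb1 to Itgb8, or a laminin alpha, beta or gamma chain. The results cover 36 of 29721 listed genes, 26 integrin subunits and 10 laminin chains, and all 36 passed the filter on low counts. Messenger RNA was sequenced from 6 libraries of mice aged 3 months, each from a different animal. The 3 WT animals carried the Ela-myc transgene with intact Parp2, and the 3 PARP2 KO animals carried the same transgene with Parp2 knocked out, so that every animal expressed Myc from the elastase promoter, which is active in acinar cells. Every cell of a piece of pancreas contributed RNA, and the protocol speaks of tumor samples while the tissue is labelled pancreas, so no label says whether a piece held tumour. PARP2 is a poly(ADP-ribose) polymerase that acts in DNA repair, and the study asked how its loss bears on pancreatic tumour development.

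Integrins are receptors that span the cell membrane as a pair of an alpha and a beta subunit. They bind proteins of the extracellular matrix or, on leukocytes, counter-receptors on other cells, and link them to the actin cytoskeleton through adaptor proteins. Laminins are trimers of an alpha, a beta and a gamma chain and form the sheet of the basement membrane under epithelium and around vessels, fat cells and muscle. In the pancreas, acinar and duct cells hold on to that sheet mainly through the integrins made of Itga3 with Itgb1 and of Itga6 with Itgb1 or Itgb4.

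Library totals were between 28105021 and 32055565 counts. Levels are given as counts scaled to library size, in CPM after TMM scaling, errors are SD over 3 animals, and log2 changes are KO minus WT, and a gene is said to rise or fall where the adjusted p of the edgeR quasi-likelihood test was under 0.05. Parp2 itself was lower in each KO library, with a mean of 13.5 against 38.1 CPM and a log2 change of -1.50 (SE 0.097, edgeR adjusted p = 0.00201). The libraries differed strongly in their cell content. A list of 27 digestive enzyme genes, the products of acinar cells, took 28.1%, 29.9% and 23.1% of counts in WT and 4.37%, 14.6% and 0.0178% in KO, so that KO 3 was almost without acinar transcripts and KO 2 was nearest to WT. KO 1, WT 1 and WT 2 were male by Y-linked transcripts and Xist, and the other libraries were female.

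Of the 36 members, 15 rose (41.7%) and 6 fell (16.7%) in KO. Over all 17652 genes tested, 28.0% rose and 25.0% fell, and 53.0% were called in either direction. The integrin subunits had 13 higher, 5 lower and 8 not called, with a median log2 change of 0.82, and the laminin chains had 2 higher, 1 lower and 7 not called, with a median of 0.09. The median over all genes tested was 0.02. In 16 members all KO libraries lay above all WT libraries, in 9 they lay below, and in 11 the genotypes overlapped. The same arrangements held for 34.4% and 33.7% of all genes tested. By the cell class in which each gene is best known, 7 of 9 leukocyte and platelet members rose and none fell, with a median of 2.15. Among 17 stromal and vascular members 7 rose and 2 fell (median 0.08), and among 10 epithelial members 1 rose and 4 fell (median -1.08). Without KO 3, the library almost free of acinar transcripts, 7 leukocyte and platelet, 7 stromal and vascular and 1 epithelial member rose, and 0, 1 and 5 fell. In that fit 23.8% of all genes rose and 20.9% fell. Without KO 1 the members that rose numbered the same in each class, but 0, 0 and 3 fell. The fit without KO 1 called 20.4% of all genes higher and 14.6% lower. Scaled by library totals alone, 10 stromal and vascular members rose and none fell, in a setting where 42.3% of all genes rose and 12.2% fell.

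**Figure D1:**
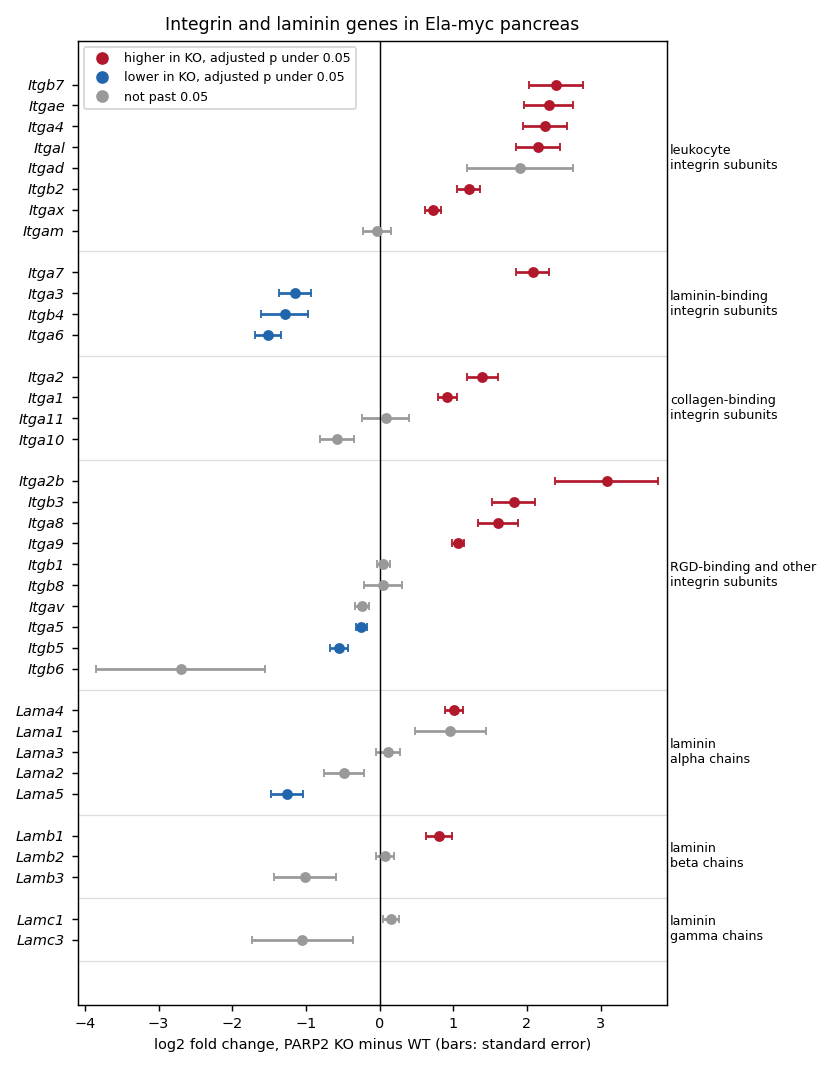
Log2 fold change of PARP2 KO minus WT for the 36 members, grouped by role, with bars for the standard error and colours for the edgeR call (n = 3 animals per genotype). Leukocyte subunits lie between -0.03 and 2.40, while 3 of the 4 laminin-binding subunits lie below -1.

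The leukocyte members differed in how far they moved, and the promoters of Itga4 and Itgb7, which rose, Itgam, which did not pass the threshold, and Itga2b, which had the highest fold change of all members, are shown for comparison. Promoter entries of RefSeq (GRCm38.p6) were used for 23 of the 36 members. No entry was used for Itga6, Itga7, Itgad, Itgae, Itgal, Itgb2, Itgb3, Itgb4, Lama1, Lama3, Lama4, Lamc1 and Lamc3. That does not mean that RefSeq lacks an entry for each of these genes, and the member shares below cover only the entries used. Each line below holds the 150 bases directly before the annotated transcription start, written 5′ to 3′ on the gene's strand. Capitals mark GAGGAA or its reverse TTCCTC, a core bound by ETS family factors, and TGTGGT or its reverse ACCACA, a core bound by RUNX factors. Both factor families are best known in blood cell development. The entry used for Itgax, which also rose, held neither core in the 250 bases before its start and is not shown.
Itga4 (chr2:79255276-79255425, plus strand): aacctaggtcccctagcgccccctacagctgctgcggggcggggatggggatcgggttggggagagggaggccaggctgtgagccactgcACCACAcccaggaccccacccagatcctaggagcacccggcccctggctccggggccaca
Itgb7 (chr15:102231936-102232085, minus strand): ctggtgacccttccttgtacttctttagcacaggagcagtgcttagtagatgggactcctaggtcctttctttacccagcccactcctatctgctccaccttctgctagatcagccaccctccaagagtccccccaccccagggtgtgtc
Itgam (chr7:128062490-128062639, plus strand): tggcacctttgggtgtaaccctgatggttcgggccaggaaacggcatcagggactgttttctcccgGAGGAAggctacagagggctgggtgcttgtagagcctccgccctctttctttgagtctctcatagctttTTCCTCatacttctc
Itga2b (chr11:102469884-102470033, minus strand): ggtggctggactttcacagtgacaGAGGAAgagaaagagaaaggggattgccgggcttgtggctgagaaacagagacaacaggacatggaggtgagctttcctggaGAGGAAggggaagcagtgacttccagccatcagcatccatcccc
Over the 250 bases before the start, searched on both strands, the ETS core stood in 13 of 26 member entries (50%) and in 23.3% of 32851 mouse promoter windows of that length. The RUNX core stood in 2 of 26 member entries (7.69%) and in 14.0% of the windows. The ETS core was in 2 of 9 entries of members that rose, in 3 of 5 of members that fell and in 8 of 12 of the rest. A match of these letters is a description of the sequence and not a binding site.

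Leukocyte integrins were the role with the most rises, with 6 of 8 higher, none lower and a median log2 change of 2.03. Itgal (ENSMUSG00000030830, GRCm38 chromosome 7, 127296260 to 127335138), the alpha subunit with which lymphocytes bind ICAM proteins, stood at 57.6, 32.4 and 45.4 CPM in WT and 204.6, 142.8 and 253.5 CPM in KO. Every KO library was above every WT library, and KO 2 was the lowest of the KO libraries. The log2 change was 2.15 (SE 0.292, edgeR adjusted p = 0.00333). In bulk tissue, fewer cells of a type and less RNA per cell cannot be told apart, and neither can more cells and more RNA per cell.

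Itgb2, the beta subunit that pairs with Itgal, Itgam, Itgax and Itgad, had 89.4, 68.0 and 80.9 CPM in WT and 188.1, 153.9 and 209.3 CPM in KO. Its groups were also apart, at a smaller log2 change of 1.21 (SE 0.154, edgeR adjusted p = 0.00275). Itga4 (chromosome 2, 79255426 to 79333123), which pairs with Itgb1 to bind VCAM1 and with Itgb7 to bind MAdCAM-1, had 70.5, 41.4 and 69.0 CPM in WT and 338.2, 198.4 and 323.3 CPM in KO. The log2 change of Itga4 was 2.25 (SE 0.296, edgeR adjusted p = 0.00311), with KO 2 again the lowest of the KO libraries. Itgb7, the beta subunit of gut-homing lymphocytes, had 30.9, 15.8 and 25.7 CPM in WT and 132.5, 79.6 and 169.3 CPM in KO. It had the highest fold change of the leukocyte subunits (log2 change 2.40, SE 0.366, edgeR adjusted p = 0.00446). Itgae, which pairs with Itgb7 on T cells and dendritic cells in epithelium and binds E-cadherin, had 6.61, 4.04 and 6.17 CPM in WT and 32.7, 16.6 and 33.2 CPM in KO. The log2 change of Itgae was 2.29 (SE 0.334, edgeR adjusted p = 0.0037).

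The other leukocyte subunits are best known in myeloid cells. Itgax, a subunit of dendritic cells and some macrophages, had 24.4, 23.8 and 22.5 CPM in WT and 42.0, 34.4 and 40.4 CPM in KO, a log2 change of 0.72 (SE 0.103, edgeR adjusted p = 0.00339). Itgam, a subunit of neutrophils, monocytes and macrophages, had 17.0, 14.1 and 19.2 CPM in WT and 17.2, 19.3 and 12.6 CPM in KO. The genotypes overlapped in Itgam, with a log2 change of -0.03 (SE 0.194, edgeR adjusted p = 0.893). The annotation GENCODE vM21 puts the gene Gm49368 on the same strand over 68.7% of the exon length of Itgam, and Gm49368 held at most 2 counts in a library, so that reads of the shared stretch may not have been assigned to either gene. Itgad, a rare myeloid subunit, had 0.587, 0.215 and 0.0689 CPM in WT and 0.703, 0.820 and 1.72 CPM in KO, and missed the threshold (log2 change 1.91, SE 0.72, edgeR adjusted p = 0.0642).

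**Figure D2:**
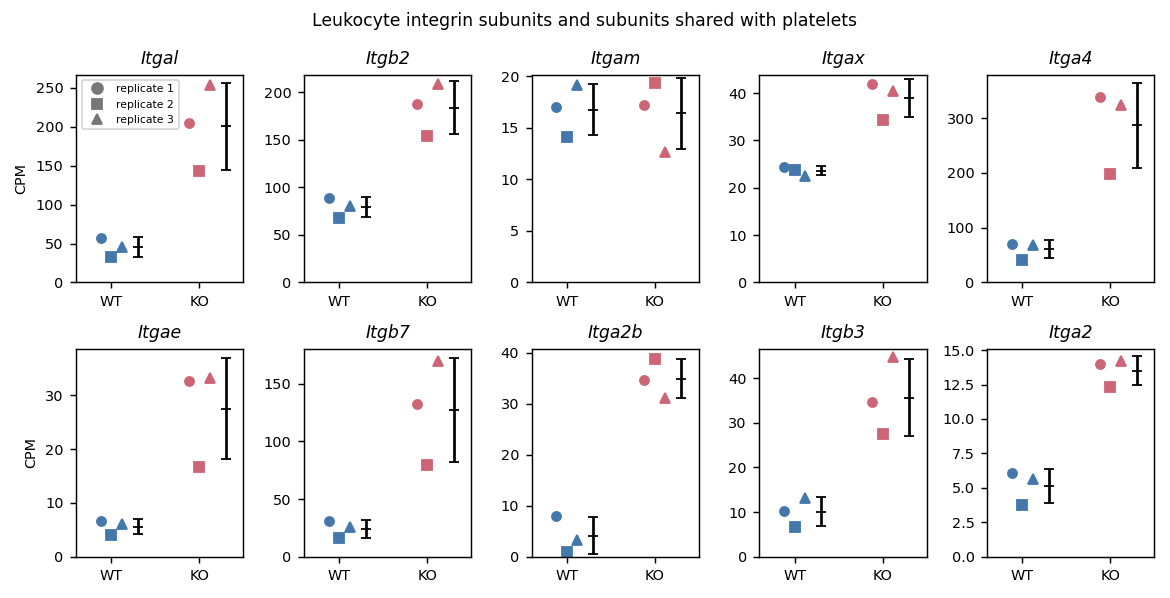
CPM of 7 leukocyte integrin subunits and of Itga2b, Itgb3 and Itga2, which platelets also carry, in each library, with black marks for the mean and SD of each genotype. All KO libraries lie above all WT libraries in every panel but that of Itgam.

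Cell type markers moved with these subunits. All 5 pan-leukocyte, 8 T cell and 6 B cell markers rose. The summed level of the T cell markers was 57.0 to 158.5 CPM in WT and 402.5 to 968.1 CPM in KO, and that of the B cell markers was 98.4 to 293.9 and 1033 to 1534 CPM. Of 6 macrophage markers 1 rose and 1 fell, and their summed levels were 1080 to 1130 CPM in WT and 1083 to 1365 CPM in KO. The dendritic cell markers had 4 of 5 higher, and the neutrophil markers 2 of 5, with summed levels of 10.4 to 17.6 CPM in WT and 23.0 to 44.1 CPM in KO. Without WT 3 only 1 neutrophil marker rose, and the macrophage markers that fell numbered 0 without WT 1, WT 2, KO 1 or KO 3 and 3 without KO 2. None of these markers was at 0 in all libraries.

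Ratios within a library do not depend on scaling, and 38 were computed as log2 of the quotient of counts plus 0.5. With 3 animals against 3 the two-sided exact permutation p cannot go below 0.10, and after adjustment over the 38 ratios the smallest was 0.127. The ratios are therefore described by whether the genotypes overlapped, which was not the case in 30. No such share was computed for ratios of other genes. Of all single genes tested, 34.4% had every KO library above every WT library and 33.7% below, so the count of 30 is a description and not a result about these pairs. Relative to Ptprc, the common leukocyte antigen, Itgal had a log2 ratio of -2.10 in WT and -2.17 in KO, where all KO libraries were just below all WT libraries. The ratio of Itga4 to Ptprc was -1.68 in WT and -1.65 in KO, and that of Itgb7 to Ptprc -3.02 and -2.85, both with overlapping genotypes. Per unit of Ptprc, these subunits therefore lay within 0.17 log2 units of WT. Itgb2 was lower by 1.01 log2 units relative to Ptprc, with no overlap. Ptprc had the highest log2 change of the 5 pan-leukocyte markers, which ran from 1.28 to 2.22. Against the other pan-leukocyte markers, the differences of these subunits would therefore be higher. Relative to Csf1r, the receptor that marks macrophages and monocytes, Itgam was lower by 1.11 and Itgax by 0.35 log2 units, and the genotypes did not overlap in either. Csf1r had the highest log2 change of the 6 macrophage markers, which ran from -0.52 to 1.07 with a median of -0.18. Against the other macrophage markers, both differences would therefore be higher. Itgae relative to Cd3e, a subunit of the T cell receptor complex, differed by -0.53 with overlap. The ratio of Itgal to Itgam was 1.40 ± 0.315 in WT and 3.59 ± 0.72 in KO on the log2 scale.

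**Figure D3:**
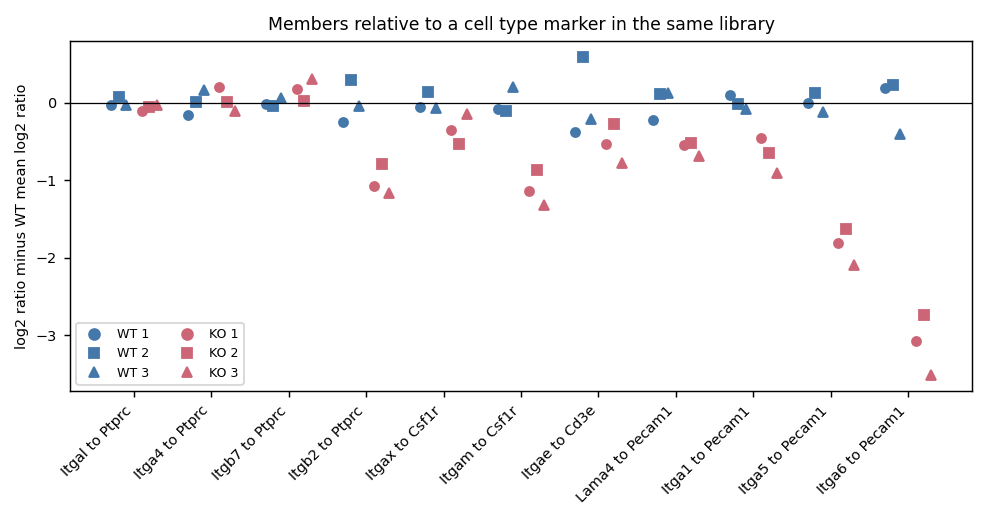
Log2 ratio of a member to a cell type marker in the same library, minus the mean of the WT libraries, for 11 pairs (circles, squares and triangles are replicates 1, 2 and 3; blue is WT and red is KO). Itgal, Itga4 and Itgb7 stay near 0 relative to Ptprc, while Itga6 relative to Pecam1 lies near -3 in KO.

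Itga2b and Itgb3 form the fibrinogen receptor of platelets, and both rose. Itga2b (chromosome 11, 102453297 to 102470122) had 8.06, 0.946 and 3.31 CPM in WT and 34.7, 38.8 and 31.1 CPM in KO. The WT libraries spread widely, with WT 2 the lowest, and all lay below the KO libraries (log2 change 3.08, SE 0.701, edgeR adjusted p = 0.0147). Without WT 3 the adjusted p was 0.0563. Itgb3, which also pairs with Itgav on endothelium and macrophages, had 10.3, 6.75 and 13.2 CPM in WT and 34.6, 27.6 and 44.6 CPM in KO (log2 change 1.82, SE 0.291, edgeR adjusted p = 0.00467). Of 6 platelet markers only 2 passed the filter on low counts, and neither was called (log2 changes -0.41 and 1.10). Without WT 3, 1 platelet marker was called higher. The summed level of the 6 markers was 9.16 to 15.3 CPM in WT and 7.58 to 14.8 CPM in KO. The 5 markers other than Pf4 together reached at most 1.39 CPM in any library, so the sum rests mostly on Pf4. Relative to Pf4, Itga2b was higher by 3.98 log2 units, with no overlap.

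The laminin-binding integrins moved in both directions, with 3 of 4 lower and 1 higher. Itga6 (ENSMUSG00000027111, chromosome 2, 71745616 to 71858416), the alpha subunit of epithelial laminin receptors and of hemidesmosomes, had 425.9, 369.3 and 291.4 CPM in WT and 124.6, 144.3 and 109.5 CPM in KO. All KO libraries were below all WT libraries, with a log2 change of -1.52 (SE 0.176, edgeR adjusted p = 0.00233). Itga3, the other main laminin receptor subunit of epithelium, had 29.5, 41.2 and 31.1 CPM in WT and 12.3, 19.3 and 14.3 CPM in KO (log2 change -1.15, SE 0.211, edgeR adjusted p = 0.00643). Itgb4, which pairs with Itga6 alone and anchors hemidesmosomes to keratin filaments, had 73.4, 110.7 and 69.4 CPM in WT and 30.4, 49.3 and 24.0 CPM in KO. WT 2 and KO 2 were the highest libraries of their genotypes in Itgb4, and the groups did not overlap (log2 change -1.29, SE 0.319, edgeR adjusted p = 0.018). The call of Itgb4 ended without WT 2 (adjusted p = 0.0504) or without KO 1 (0.0738). It also ended with sex (edgeR adjusted p = 0.0523) or the digestive enzyme level (0.0681) as a term.

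Itga7, the laminin receptor subunit of skeletal, cardiac and smooth muscle, went the other way. It had 10.6, 10.3 and 13.7 CPM in WT and 56.6, 34.8 and 55.0 CPM in KO, with no overlap (log2 change 2.08, SE 0.226, edgeR adjusted p = 0.00221). Of 7 smooth muscle and pericyte markers 2 rose and none fell, where 28.0% of all genes tested rose and 25.0% fell. The summed level of these markers was 333.9 to 649.1 CPM in WT and 723.3 to 959.6 CPM in KO. The count of 2 was 0 without WT 1 or KO 1, 1 without WT 2, KO 2 or KO 3, 6 without WT 3, and 5 with the DESeq2 Wald test or limma-voom. The ratio of Itga7 to Myh11, a smooth muscle myosin, was higher by 0.63 log2 units in KO with overlapping genotypes (exact permutation p = 0.3). What part smooth muscle content has in the level of Itga7 was not tested.

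Epithelial members outside the laminin receptors did not move as a block. Itgb6, which pairs with Itgav to activate TGF-beta on epithelium, had 10.4, 16.6 and 7.65 CPM in WT and 1.27, 4.04 and 0.0514 CPM in KO. The groups did not overlap and KO 3 held 2 counts, but with this spread in KO the log2 change of -2.70 missed the threshold (SE 1.15, edgeR adjusted p = 0.0934). Itgb6 passed it without KO 2 (log2 change -4.13, adjusted p = 0.0332), without KO 3 (-2.11, 0.0397) and with limma-voom (-4.06, 0.0299), and its log2 change ranged from -4.13 to -0.82 over all settings. Itga2, a collagen receptor subunit of epithelium and platelets, rose instead, from 6.07, 3.74 and 5.61 CPM to 14.0, 12.3 and 14.2 CPM (log2 change 1.39, SE 0.21, edgeR adjusted p = 0.00378). Itgb8, which also pairs with Itgav, had 10.6 to 17.7 CPM in WT and 11.1 to 18.5 CPM in KO, with overlap (log2 change 0.05, SE 0.26, edgeR adjusted p = 0.892).

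The epithelial markers were low in KO in an uneven way. The summed level of 10 duct and simple epithelium markers was 1165 to 1973 CPM in WT and 22.4 to 591.7 CPM in KO. Where 25.0% of all genes tested fell, 3 of the 10 did. That count was 0 without any 1 of the WT libraries or KO 1, 8 without KO 2 and 6 without KO 3. Epcam, an adhesion protein of simple epithelium, had a mean of 169.6 CPM in WT and 24.6 CPM in KO (log2 change -2.79, SE 0.969, edgeR adjusted p = 0.0543). Relative to Epcam, Itga3, Itgb4, Lama5 and Lamb3 were each higher in KO by 2.23 to 2.58 log2 units, and Lama3 and Itga2 by 3.67 and 4.97, all with no overlap. The KO libraries were spread widely in these ratios, with SDs of 1.47 to 2.09. Without KO 3 the differences were 1.45 for Itga3, 1.48 for Itgb4, 1.49 for Lama5, 1.70 for Lamb3, 2.74 for Lama3 and 3.95 for Itga2. Itga6 was higher by 2.04 relative to Epcam with overlap (1.16 without KO 3), and Itgb6 differed by -0.43 with overlap (exact permutation p = 0.9; 0.31 without KO 3). Of these members, Itgb6 came nearest to following Epcam, and the others were lower by less or not lower. The part of epithelial content in each member's level was not tested.

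**Figure D4:**
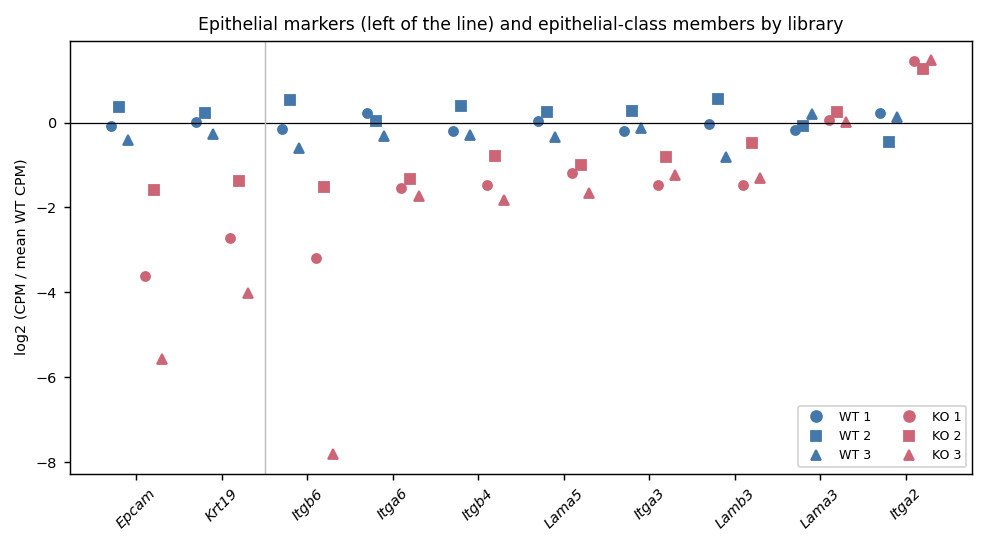
CPM of the epithelial markers Epcam and Krt19 and of 8 epithelial members in each library, as log2 of the ratio to the WT mean. In KO 3 the markers and Itgb6 lie far below the other members, and Itga2 lies above 1 in all KO libraries.

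Collagen-binding subunits had 2 of 4 higher and none lower. Itga1, a subunit of smooth muscle, endothelium and tissue T cells, had 72.4, 56.0 and 65.6 CPM in WT and 136.8, 110.0 and 119.9 CPM in KO (log2 change 0.92, SE 0.13, edgeR adjusted p = 0.00333). Relative to Pecam1, an endothelial adhesion protein that rose, Itga1 was lower by 0.67 log2 units. The log2 changes of the endothelial markers ran from 0.19 to 2.44, so the difference of Itga1 holds for Pecam1 only. Itga10, best known in cartilage, was low throughout, at 4.0 to 6.41 CPM in WT and 3.14 to 3.70 CPM in KO, and missed the threshold although the groups did not overlap (log2 change -0.58, SE 0.231, edgeR adjusted p = 0.0743). Gm42957 lies on the same strand over 33.5% of its exon length. Itga11, a fibrillar collagen receptor subunit of fibroblasts, had 6.71 to 14.9 CPM in WT and 8.60 to 12.6 CPM in KO (log2 change 0.08, SE 0.315, edgeR adjusted p = 0.84).

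Receptors for RGD ligands and related subunits had 4 of 10 higher and 2 lower, Itga2b and Itgb3 among the higher. Itga8, which mesenchymal cells use to bind nephronectin, had 3.91, 3.95 and 7.27 CPM in WT and 15.9, 16.2 and 14.2 CPM in KO (log2 change 1.61, SE 0.27, edgeR adjusted p = 0.00501). Itga9, a subunit of smooth muscle, lymphatic endothelium and neutrophils that binds tenascin and VCAM1, had 46.5, 44.6 and 40.4 CPM in WT and 91.2, 88.1 and 95.6 CPM in KO. The libraries of each genotype lay close together in Itga9, which had the smallest adjusted p of the members (log2 change 1.06, SE 0.0847, edgeR adjusted p = 0.00201). Itgb5, a vitronectin receptor subunit, fell from 82.8, 97.9 and 83.6 CPM to 54.5, 69.6 and 56.2 CPM (log2 change -0.55, SE 0.127, edgeR adjusted p = 0.0131). That call ended without KO 1 (adjusted p = 0.0624), with library totals alone as scaling (log2 change -0.16, adjusted p = 0.273) and with the digestive enzyme level as a term (0.0813).

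Itga5, the fibronectin receptor subunit, had 45.4, 42.3 and 43.4 CPM in WT and 36.4, 38.2 and 35.8 CPM in KO, a log2 change of -0.25 (SE 0.0756, edgeR adjusted p = 0.033). Its groups were apart, but its direction rested on the scaling. Scaled by library totals alone the log2 change was 0.15, in a setting that moved the median of all genes by 0.40, and the call was also lost when any library other than KO 2 was left out. Itgav, the alpha subunit shared by the vitronectin and TGF-beta activating receptors, had 81.3, 83.9 and 70.5 CPM in WT and 68.2, 69.3 and 61.8 CPM in KO, and did not pass (log2 change -0.24, SE 0.097, edgeR adjusted p = 0.0753; 0.16 with library totals). Itgb1, the beta subunit shared by most matrix receptors, had 376.0, 380.3 and 381.9 CPM in WT and 396.1, 407.2 and 373.4 CPM in KO, with overlap (log2 change 0.05, SE 0.089, edgeR adjusted p = 0.665). Scaled by library totals alone Itgb1 was called at 0.44 (adjusted p = 0.0236).

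Because Itgb1 is the common partner, Itgb2, Itgb4, Itgb5, Itgb6 and Itgb7 were set against it in the same library. Itgb3 and Itgb8 were not. Itgb2 and Itgb7 were higher relative to Itgb1 by 1.16 and 2.34 log2 units, and Itgb4, Itgb5 and Itgb6 were lower by 1.37, 0.60 and 4.03, with no overlap between genotypes in any of these. The ratio of Itga4 to Itga5, which are the VCAM1 and fibronectin partners of Itgb1, was higher in KO by 2.50 log2 units with no overlap. The ratio of Itga3 to Itga6, which both fell, differed by 0.35 log2 units with overlapping genotypes (exact permutation p = 0.3).

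Levels of different genes were compared per exon length, as TPM. TPM totals move with the digestive enzymes, so only the order within a genotype and shares within a family are compared. Itgb1 was first of the 36 members in both genotypes. In WT Itga6 was next, and Itgb2, Itgb5 and Lamc1 followed with means that lay within each other's spread. In KO Itgb2, Itgb7 and Itgal were next, whereas Itga6 was 10th, Itgb7 having been 11th and Itgal 13th in WT. The KO means of Itgb2, Itgb7 and Itgal had spreads that overlap. Of the summed TPM of all alpha subunits, Itga6 made up 40.5% ± 4.6 in WT and 10.4% ± 2.6 in KO, and Itgal 6.91% ± 1.49 and 22.1% ± 4.16. Of all beta subunits, Itgb1 made up 55.0% ± 0.886 and 41.8% ± 5.16, Itgb2 15.4% and 25.9%, and Itgb7 5.15% and 19.5% (SD, n = 3 each).

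Laminin chains as a family had 2 higher, 1 lower and 7 not called, but the alpha chains exchanged rank. Lama5 (ENSMUSG00000015647, chromosome 2, 180176373 to 180225859), the main alpha chain under adult epithelium, had 152.4, 176.1 and 117.4 CPM in WT and 65.1, 74.0 and 47.2 CPM in KO. Every KO library lay below every WT library (log2 change -1.26, SE 0.216, edgeR adjusted p = 0.00548). Lama4 (chromosome 10, 38965515 to 39110188), the alpha chain around endothelium, fat cells and smooth muscle, went the other way, from 66.6, 70.5 and 86.7 CPM to 148.1, 139.7 and 161.1 CPM (log2 change 1.0, SE 0.123, edgeR adjusted p = 0.00259).

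Per length, Lama5 was 58.8%, 57.9% and 45.6% of the alpha chain transcripts in WT and 25.7%, 29.0% and 20.5% in KO. Lama4 was 24.3%, 21.9% and 31.8% in WT and 55.2%, 51.7% and 66.2% in KO. Lama5 was thus the leading alpha chain in each WT library and Lama4 in each KO library, and the log2 ratio of Lama5 to Lama4 was lower in KO by 2.28. Lama2, the chain of muscle, Schwann cells and fibroblasts, had 51.8, 76.8 and 68.7 CPM in WT and 54.9, 56.0 and 30.4 CPM in KO, with overlap (log2 change -0.48, SE 0.271, edgeR adjusted p = 0.174). Lama3, the chain of epithelial anchoring laminin, was 6.81 to 8.78 CPM in WT and 7.68 to 9.03 CPM in KO (log2 change 0.11, SE 0.162, edgeR adjusted p = 0.577). Lama1, an embryonic chain, reached at most 1.51 CPM in every library and did not pass (adjusted p = 0.134).

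Markers of the cells in which Lama4 is best known differed in how far they moved. Of 10 endothelial markers 9 rose, with summed levels of 341.5 to 395.1 CPM in WT and 892.5 to 1028 CPM in KO. All 8 fat cell markers rose, from 510.1 to 1364 CPM in sum to 6526 to 8100 CPM, whereas the smooth muscle and pericyte markers had 2 of 7 higher, as given beside Itga7. Relative to Pecam1, Lama4 was lower by 0.58 log2 units in KO, with no overlap, so that it rose less than Pecam1. The log2 changes of the endothelial markers ran from 0.19 to 2.44 with a median of 1.30, so this difference holds for Pecam1 only. Of 9 fibroblast markers 3 fell and none rose, where 25.0% of all genes tested fell and 28.0% rose. Their summed levels were 4560 to 4908 CPM in WT and 2639 to 4006 CPM in KO. Lama2 was lower by 0.58 log2 units relative to Pdgfra, a fibroblast receptor, with no overlap. The log2 changes of the fibroblast markers ran from -1.21 to 0.14 with a median of -0.34, so this difference holds for Pdgfra only. Lamb1 relative to Pdgfra, Itga11 relative to Col1a1 and Itga8 relative to Pdgfrb were higher by 0.74, 1.36 and 1.55 log2 units, also with no overlap. Each of these differences likewise holds only for the marker named, and Itga11 itself had a log2 change of 0.08. The parts of endothelial, fat and fibroblast content in these laminin and integrin levels were not tested.

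**Figure D5:**
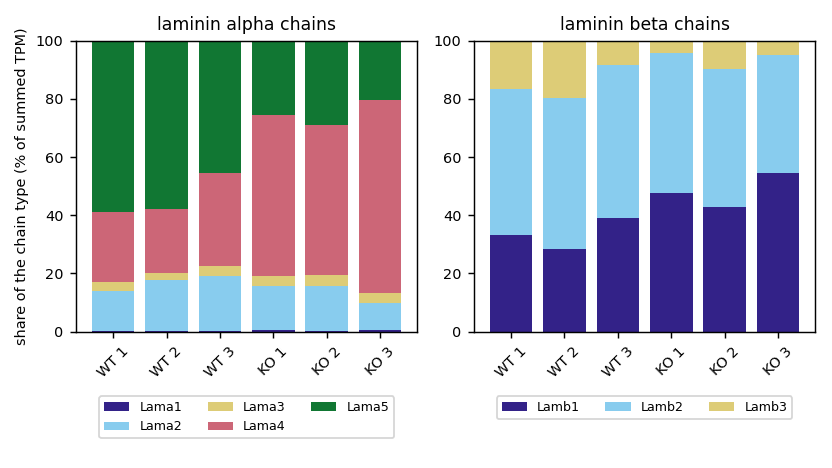
Share of each laminin chain in the summed TPM of its chain type, in percent, for every library (left, alpha; right, beta). Lama5 takes 45.6% to 58.8% of alpha chain transcripts in WT and 20.5% to 29.0% in KO, and Lama4 is the leading chain in KO.

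Among the beta chains Lamb1, the general chain of vessels and stroma, rose from 77.8, 85.5 and 107.1 CPM to 158.1, 129.0 and 184.9 CPM with no overlap (log2 change 0.80, SE 0.175, edgeR adjusted p = 0.0111). The adjusted p of Lamb1 was 0.0605 with the digestive enzyme level as a term. Lamb2, the chain of mature vessels and synapses, had 72.7 to 95.6 CPM in WT and 84.4 to 98.0 CPM in KO (log2 change 0.07, SE 0.123, edgeR adjusted p = 0.631; 0.47 and 0.0455 with library totals). Lamb3, the partner of Lama3 in the anchoring laminin of epithelium, had 26.1, 39.2 and 15.2 CPM in WT and 9.62, 19.2 and 10.9 CPM in KO. Its groups overlapped through WT 3 and KO 2, and it did not pass (log2 change -1.02, SE 0.42, edgeR adjusted p = 0.085). The share of Lamb1 in beta chain transcripts was 33.5% ± 5.27 in WT and 48.3% ± 5.92 in KO, and that of Lamb3 was 14.8% ± 5.85 and 6.24% ± 2.88 (SD, n = 3 each).

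Of the gamma chains, Lamc1, found in most laminins, had 183.5, 175.9 and 211.7 CPM in WT and 216.8, 219.4 and 199.5 CPM in KO, with overlap (log2 change 0.15, SE 0.103, edgeR adjusted p = 0.236; 0.54 and 0.0244 with library totals). Lamc3, a chain of nerve and retina basement membranes, had 7.89 to 25.6 CPM in WT and 2.52 to 10.5 CPM in KO (log2 change -1.05, SE 0.682, edgeR adjusted p = 0.232).

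Of 10 tested ligands on cell surfaces, 7 rose and 1 fell, with a median log2 change of 1.39. Their summed level overlapped between genotypes, at 685.9 to 833.7 CPM in WT and 736.0 to 794.4 CPM in KO. Icam1, a ligand of Itgal with Itgb2, rose from 45.5 ± 2.36 to 117 ± 15.0 CPM (log2 change 1.36, SE 0.112, edgeR adjusted p = 0.00201), and Icam2, an endothelial ligand of the same receptor, from 8.05 ± 1.60 to 34.3 ± 5.31 CPM. Jam3, a junction protein that binds Itgam with Itgb2, rose from 16.7 ± 4.99 to 73.3 ± 4.04 CPM. Madcam1 and Vcam1, which are the vessel ligands of Itga4 and were chosen after their values were seen, had log2 changes of 3.05 and 1.65 (edgeR adjusted p = 0.0043 and 0.0024). F11r, a junction protein of epithelium that binds Itgal, fell from 122 ± 26.3 to 66.1 ± 19.8 CPM, and Cdh1, which encodes E-cadherin, the ligand of Itgae, had a log2 change of -2.87 and missed the threshold (SE 1.18, edgeR adjusted p = 0.0864). The call of F11r was kept only without WT 3 or without KO 2 among the fits that left out a library. Over this list and the 4 lists that follow, 35 of 85 genes rose and 15 fell. Over all genes tested, 28.0% rose and 25.0% fell, and the counts of each list are to be read beside these shares. Without KO 1, 27 rose and 6 fell, in a fit that called 20.4% of all genes higher and 14.6% lower.

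Adaptors that activate integrins or bind their tails had 18 of 33 higher and 5 lower, with a median log2 change of 0.42. The rises of smallest p were in genes of blood cells. Ptk2b, a focal adhesion kinase of leukocytes, rose from 55.3 ± 8.58 to 182 ± 26.4 CPM, Fermt3, the kindlin of blood cells, from 40.5 ± 7.36 to 115 ± 16.5 CPM, and Parvg, the parvin of blood cells, from 15.2 ± 4.74 to 68.1 ± 14.9 CPM. Bcar1, a scaffold of focal adhesions, fell from 46.9 ± 10.6 to 22.1 ± 3.13 CPM, and Ptk2, the widely expressed focal adhesion kinase, from 66.2 ± 1.74 to 49.7 ± 4.81 CPM. Tln2, the second talin gene, fell from 51.7 ± 7.23 to 34.0 ± 1.78 CPM. Scaled by library totals alone, Ptk2 and Tln2 were not called (log2 changes -0.02 and -0.22), and the list had 25 higher and 1 lower. In that setting 42.3% of all genes rose and 12.2% fell. Without KO 2 the list had 18 higher and 8 lower, beside 28.3% and 27.8% of all genes. Without KO 1 the list had 15 higher and 2 lower, beside 20.4% and 14.6%, and Ptk2 was not called (adjusted p = 0.052).

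The other genes of the basement membrane had 2 of 16 higher and 3 lower and a median log2 change of 0.05. Scaled by library totals alone, 6 were higher and 3 lower, in a setting where 42.3% of all genes rose and 12.2% fell. Nid1, which links laminin to collagen IV, rose from 231 ± 28.2 to 363 ± 8.88 CPM (log2 change 0.65, SE 0.114, edgeR adjusted p = 0.00551), and its relative Nid2 from 30.3 ± 4.62 to 40.6 ± 1.06 CPM. Agrn, an epithelial and vascular proteoglycan that binds laminin, fell from 164 ± 31.4 to 74.5 ± 19.8 CPM, and Frem2 and Frem1, which hold epithelium to its basement membrane, fell from 22.3 ± 4.08 to 2.33 ± 1.26 and from 11 ± 2.77 to 2.49 ± 2.13 CPM. The calls of Nid2 and Frem1 each held in 2 of the 6 fits that left out a library.

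Soluble and matrix ligands had 5 of 15 higher and 2 lower (median -0.04), where 28.0% of all genes tested rose and 25.0% fell. The counts were 3 and 0 without KO 1, 5 and 0 without WT 1, and 3 and 1 without WT 3. In those fits the shares of all genes were 20.4% and 14.6%, 22.8% and 18%, and 24.3% and 20.8%. Mfge8, a secreted bridge from dying cells to Itgav receptors, rose from 173 ± 22.4 to 571 ± 63.4 CPM. Tgfb1, whose latent form is activated by Itgb6 and Itgb8 receptors, rose from 38.0 ± 5.99 to 81.1 ± 4.39 CPM, and Ccn3, a matricellular protein, from 6.70 ± 2.68 to 18.3 ± 2.54 CPM. Vtn, which encodes vitronectin, and Thbs1, which encodes thrombospondin, fell from 279 ± 139 to 71.1 ± 37.0 and from 324 ± 172 to 109 ± 18.7 CPM. These 2 calls rested on few libraries, since that of Vtn held in 2 of the 6 fits that left out a library and that of Thbs1 in 1.

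Laminin receptors outside the integrins and their tetraspanin partners had 3 of 11 higher and 4 lower (median -0.01). Over all genes tested these shares were 28.0% and 25.0%. Dst, a linker of hemidesmosomes that also has neural and muscle forms, rose from 103 ± 28.5 to 213 ± 29.6 CPM, and Cd151, a tetraspanin that binds laminin receptors, from 92.2 ± 11.1 to 133 ± 8.85 CPM. Dag1, which encodes dystroglycan, fell from 358 ± 28.7 to 184 ± 30.9 CPM, Cd9, a tetraspanin, from 147 ± 14.1 to 66.1 ± 20.6 CPM, and Sdc1, the syndecan of epithelium and plasma cells, from 96.4 ± 23.9 to 29.8 ± 14.9 CPM. The call of Sdc1 ended without KO 1 (adjusted p = 0.061). Col17a1, a hemidesmosome collagen, was called at 0.350 ± 0.198 against 1.23 ± 0.632 CPM with overlapping genotypes, and that call held only without KO 2 among the fits that left out a library.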

How the data were processed

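Stranded mRNA libraries were prepared from total RNA, per the labels' protocols. The authors deposited whole-number gene counts that were not normalised, and log2 values. The deposited log2 values matched log2 of counts divided by DESeq2 size factors plus 1 (largest difference 5.15e-14) and entered only an alternative. FastQC 0.11.5, STAR 2.5.3a, DESeq2 1.28.1 and GRCm38 (mm10) are named in the submitters' processing notes, which attach no role to them. The counting program and annotation release are likewise not given in the sources used, so counts of overlapping genes are uncertain.

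Genotypes, 3 libraries each, were compared with edgeR 4.0.16 (R 4.3.3; TMM, group-wise filter on low counts, robust quasi-likelihood F-test, genotype alone), with Benjamini-Hochberg adjustment over 17652 genes and 0.05 as the threshold. Library totals were 28105021 to 32055565. The SE of a log2 change is its size over the square root of F. The replicates are different animals, and replicate numbers only name them. TPM used exon lengths of GENCODE vM21, in which all 36 members had the same start and end as in the file. The test was also run on simulated counts for 17652 genes of this comparison, with known changes.

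The members, their roles and classes, the pathway and marker lists, the ratios and the alternatives were chosen with earlier results of these data known. Each of the 36 members is named, and 1 further gene that matches the rule is not reported here. Members past the threshold with a mean of at least 1 CPM are given by library. In each pathway list up to 3 called genes of smallest p per direction are named, and the report says where a gene was singled out by its values. Alternatives were other scalings, filters and tests (limma 3.58.1, DESeq2 1.42.0), sex or digestive enzyme level as a covariate, and omission of each library in turn.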

Additional observations from a re-analysis of the deposited data

How the results depend on the processing

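Of the 15 higher members, 13 were called in the reported fit and in all 16 alternatives run; the exceptions were Itga2b without WT 3 and Lamb1 with the digestive enzyme level as a term. Of the 6 lower members only Itga3, Itga6 and Lama5 were. The lower count of 6 became 3 with the digestive enzyme level as a term, 4 with sex as a term, and 3 to 8 when a library was left out (3 without KO 1, 4 without WT 2, 8 without KO 2). Over all genes the lower share was 25.0%, against 14.1% with the digestive enzyme term, 18.7% with sex as a term, 14.6% without KO 1 and 27.8% without KO 2. With sex as a term the calls of Itga5, Itgb4, Nid2, Frem1, Thbs1, F11r and Col17a1 were lost. The higher count was 14 to 16 without a library and 19 with library totals, under which 77.6% of all calls were higher against 52.8%. Of the pathway list genes 15 were lower, against 9 with library totals, 8 with the digestive enzyme term, and 6 to 19 without a library (6 without KO 1), and 35 were higher, against 48 with library totals, 26 with the digestive enzyme term and 27 to 34 without a library. Ratios with no overlap numbered 30 to 34 without a library, where fewer libraries make overlap rarer.

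Signs changed for Itga5, Itgav and Itgam with library totals (0.15, 0.16 and 0.34), Itgam with the digestive enzyme term (0.24) and Itga11 with sex as a term (-0.10). Leaving out a library gave ranges across 0 for Itgam (-0.17 to 0.13), Itga11 (-0.15 to 0.45), Itgb8 (-0.18 to 0.26) and Lamb2 (-0.032 to 0.16), and among the ratios for Itga4 to Ptprc (-0.051 to 0.11) and Itgb6 to Epcam (-0.89 to 0.31, and 0.087 with an offset of 5). Only Itga5 of these was called. The cause was not tested beyond the construction of each alternative. No paired analysis was possible because replicate numbers follow only the order of the samples. Itgad in WT and Itgb6 in KO rest on as few as 2 counts in a library, where depth limits precision.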
